A study of Drosophila melanogaster with 3 samples.

Results

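The strong peaks described here are the 202 entries of the thresholded dm6 peak list that have a signal value of 5000 or more, out of 8708 entries in all. Signal is the peak height that the authors' peak caller set against a control, and these heights chose the members. They ran from 5023 to 70620, with a median of 19877, against 119 to 4950 and a median of 231 in the other 8506 thresholded peaks. The peaks come from Drosophila melanogaster whole embryos of mixed sex, 0 to 24 hours old, of the transgenic strain CG15514-GFP, in which the protein CG15514 carries eGFP at its C-terminal end. Chromatin sheared to fragments of 200 to 800 bp was precipitated in 3 biological replicates, which form the single group. The labels describe the antibody as anti-GFP, while their antibody field names CG15514. The labels do not say which promoter drives the fusion or whether the untagged protein was also present. Whole embryos mix all cell types of the ages collected, so a peak height cannot be split into the share of cells bound and the binding per cell. Sequencing depth is unknown, because read counts are not part of the lists, and no list from embryos without the tag was analysed here.

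ChIP-seq recovers the DNA that was crosslinked to, or near, a tagged protein, and the summit of a peak marks where recovery was highest. A promoter is the DNA around a transcription start site (TSS). In the compact fly genome many broadly expressed genes lie head to head, with start sites that point away from each other across shared DNA. Factors that bind DNA as pairs often recognise palindromes, sequences that read the same on both strands. The element studied most here is GAACCAG or GAACTAG, sought on both strands, and the 10-base palindrome that joins GAAC to its reverse complement, which has the forms GAACCAGTTC (GAACTGGTTC on the other strand), GAACTAGTTC and GAACCGGTTC. Both were first picked out from the strongest of these same peaks, so their presence there is a description and not independent evidence.

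The palindrome stood within 100 bp of 74 of the 202 strong summits. Windows of 30 bases around it are shown for 7 of the strongest peaks on the arms X, 2L, 3L and 3R, so that the bases inside and outside the palindrome can be compared. They are read from the plus strand of Release 6, the assembly that dm6 names, and capitals mark the palindrome.
CG11454, chr2L:143199-143228: tccccactagGAACTAGTTCttaataaccg
CG12091, chr3L:1536817-1536846: atccggttcaGAACTGGTTCggtgctggtt
Rilpl, chrX:1393012-1393041: gctcatctggGAACTGGTTCgcacatatgg
SREBP, chr3L:19793906-19793935: gtcaagacctGAACCAGTTCcttaggcccg
CG5521, chr3R:26966850-26966879: ttcatggtgcGAACTAGTTCcgtgcagtca
CASK, chr3R:21822659-21822688: ggttgcaactGAACCGGTTCgccgcgaact
zf30C, chr2L:9758267-9758296: gagccgtaccGAACTGGTTCgtggcaatgc
The window at CG11454 lies in an annotated intron, those at CG12091 and CASK have their centre in a 5' UTR, and the other 4 have an intergenic centre. All 3 forms of the palindrome are present among these 7 windows.

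A further 75 strong peaks had GAACCAG or GAACTAG within 100 bp of the summit and no palindrome. The 2 strongest of them with a window outside annotated exons are shown, with the 7-base site in capitals, followed by 2 strong peaks without that site whose best stretch differs from the palindrome at 1 base, and by aux, whose best stretch differs at 2. In the last 3 the capitals mark that best stretch.
Dph1, chr3L:11697010-11697038: agatgagcaaaGAACTAGaagcagtttta
Sbat, chr2L:2878276-2878304: aaatataaaaaGAACTAGttttcgtatga
Sec63, chr3L:7360529-7360558: ccgtgcaatcGAACCGGCTCcgctccagct
Lar, chr2L:19587220-19587249: cggattttcgGAATCAGTTCgctcgcgaac
aux, chr3R:4220961-4220990: ctatcggagcAAACTGATTCcgctccaccc
The Dph1, Sbat and Sec63 windows are intergenic, the Lar window is centred in a 5' UTR, and the aux window is centred in an intron and overlaps an annotated UTR.

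Longer windows are shown for 4 peaks that held 3 or more matches to GAACCAG or GAACTAG, with every match in capitals, because they show how the sites are placed next to each other. None of the 4 windows touches an annotated exon.
CG11454, chr2L:143203-143303: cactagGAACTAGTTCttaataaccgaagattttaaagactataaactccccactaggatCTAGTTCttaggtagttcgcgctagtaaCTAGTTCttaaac
CG5521, chr3R:26966840-26966875: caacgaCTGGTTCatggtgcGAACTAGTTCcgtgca
Rabex-5, chr3L:1295808-1295865: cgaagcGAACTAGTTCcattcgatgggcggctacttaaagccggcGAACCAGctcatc
CG14182, chr3L:19979868-19979914: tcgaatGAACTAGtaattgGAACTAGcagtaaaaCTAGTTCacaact
The stretch GAACTAGTTC counts as 2 matches, since it reads GAACTAG on each strand. The CG11454 window holds 4 matches at 3 separate places, and the CG14182 window holds 3 separate matches and no palindrome.

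The 3 strongest peaks had close ranks in all 3 replicates, and their site content differed. The first, with a signal of 70620, lay on 2L from 142605 to 143957 with its summit at 143283, 40 bp upstream of the nearest TSS of CG11454 and 192 bp upstream of the TSS of CG31974 on the other strand. In replicates 1, 2 and 3 it ranked 2, 1 and 1, with signals of 17482, 17285 and 35891. The second, with 64036, had its summit at 3R position 4220961, 25 bp upstream of a start site of aux, which encodes auxilin, a factor that strips clathrin from vesicles. Its ranks were 3, 2 and 2, with signals of 17350, 14309 and 32454. The third, with 63950, had its summit at 3L position 1536921 between CG12091 and pns, with ranks of 1, 3 and 3 and signals of 17539, 13967 and 32313. The peaks at CG11454 and CG12091 held 4 and 3 matches to GAACCAG or GAACTAG, while the peak at aux held none and came no closer than 2 mismatches to the palindrome. High peaks without the 7-base site kept their place in each replicate as well. Polr1B, rank 8, ranked 6, 9 and 8 in replicates 1, 2 and 3, Sec63, rank 12, ranked 10, 15 and 13, and Lar, rank 27, ranked 26, 28 and 28. Signal scales differ between the lists, so signals were set side by side only within a list.

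**Figure D1:**
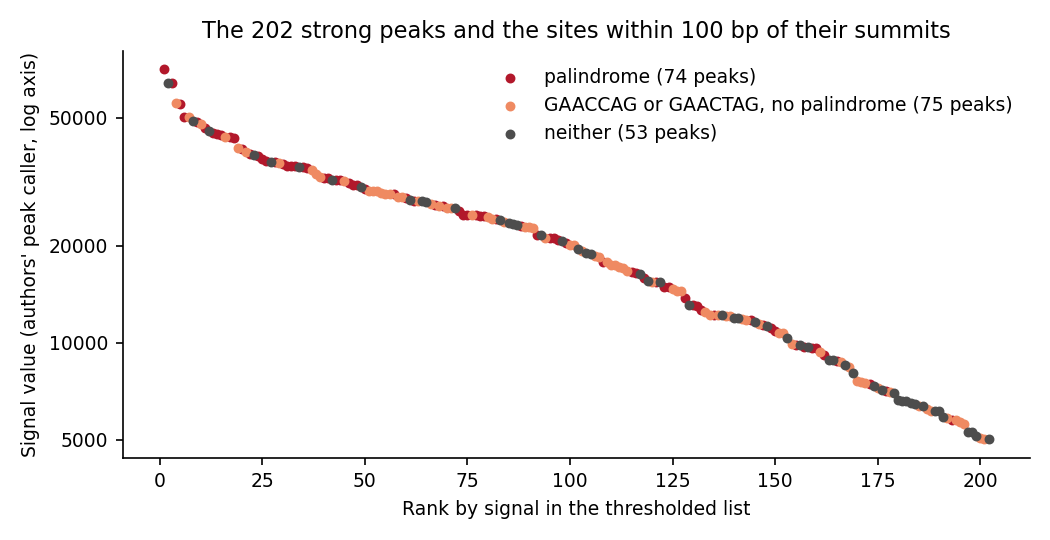
Each point is 1 of the 202 strong peaks, by its rank (x axis) and its signal value (y axis, log scale), coloured by the site within 100 bp of its summit. Signal falls from 70620 to 5023 without a break at the lower end, and the 74 peaks with a palindrome, the 75 with a 7-base site alone and the 53 with neither overlap over nearly the whole range.

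Strong peaks with a palindrome tended to stand higher in the list, but site content did not separate them from the rest. The 74 peaks with a palindrome had a median signal of 25275, with quartiles of 14922 and 35365. The 75 with GAACCAG or GAACTAG and no palindrome had a median of 17784, and the 53 with neither a median of 11956, with a range from 5023 to 64036. By number of matches, the median was 12647 for the 58 peaks with 0, 17455 for the 89 with 1, 26516 for the 45 with 2 and 35404 for the 10 with 3 or 4. A single GAACTAGTTC counts as 2 matches, so the groups by number mix the count of separate sites with the presence of a palindrome. All of the groups above overlap. The signal chose the peaks, so no test was made of these differences in height.

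A match to GAACCAG or GAACTAG lay within 100 bp of 144 of the 202 strong summits, or 71.3% (95% Clopper-Pearson interval 64.5% to 77.4%), against 4.93% of the other thresholded peaks and 3.45% of windows of the same length at all 23581 annotated start sites. The palindrome was in 36.6% of strong peaks (30% to 43.7%), against 0.799% of the other thresholded peaks and 0.373% of start site windows. Among peaks at promoters the shares were 71.7% of 187 strong peaks, against 4.26% of 5323 others, for the 7-base site, and 38% against 0.319% for the palindrome. The intervals cover counting error over peaks alone, and peaks are not replicates. The base composition of the windows was alike, with a median G and C content of 38.8% in strong peaks and 38.3% in the others.

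Within the strong peaks the shares changed with rank. Site and palindrome were picked from the strongest of these peaks, so this order is not independent of that choice. The 7-base site was at 82.1% of ranks 1 to 67, at 74.6% of ranks 68 to 134 and at 57.4% of ranks 135 to 202, and the palindrome at 52.2%, 37.3% and 20.6%. The same order went on below the threshold of 5000. Of the 107 peaks with a signal from 2000 to 5000, 29.9% had the 7-base site and 10.3% the palindrome, and of the 255 peaks from 1000 to 2000, 37 and 10 had them. The 49 peaks from 5000 to 10000, just above the threshold, had 53.1% and 18.4%.

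**Figure D2:**
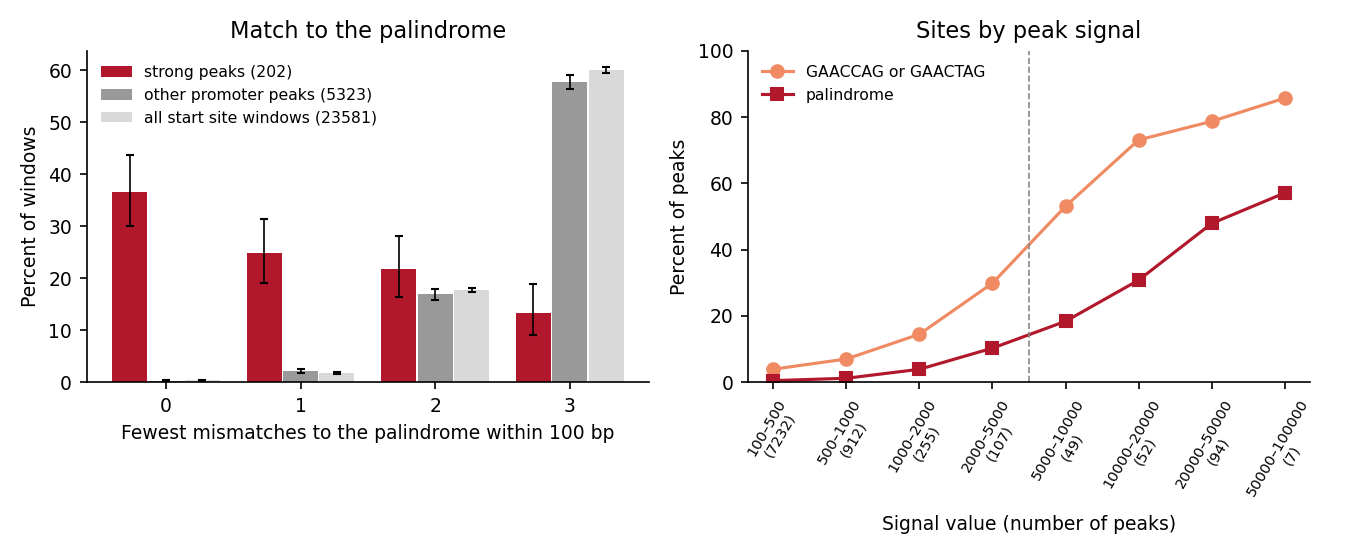
On the left, bars give the percent of windows (y axis) by the fewest mismatches to the palindrome within 100 bp (x axis, 0 to 3, windows at 4 or more not drawn), for strong peaks, other promoter peaks and all start sites, with 95% Clopper-Pearson intervals. On the right, points give the percent of peaks with each site by signal value, from low to high, with the number of peaks in brackets and a dashed line at 5000. An exact palindrome is at 36.6% of strong peaks and a best match with 1 mismatch at 24.8%, against 0.319% and 2.09% of other promoter peaks.

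Counting near matches widened the group. At least 1 stretch within 1 mismatch of the palindrome was present in 61.4% of strong peaks (54.3% to 68.1%), against 3.13% of other thresholded peaks and 2.14% of start site windows. The best stretch had exactly 2 mismatches in 21.8% of strong peaks, 16.4% of the others and 17.8% of start site windows. These shares leave out the 61.4%, 3.13% and 2.14% with a closer stretch. They therefore do not compare how common stretches with 2 mismatches were. Beside the 7-base site, the bases of the palindrome were more frequent in strong peaks. In the 144 strong peaks with a site, the base after the site nearest to the summit was T in 74.3%, the next T in 64.6% and the next C in 51.4%. In the 419 other thresholded peaks with a site these shares were 46.3%, 42.0% and 30.3%. On the other side, the base before the site was G in 44.4% of the strong peaks, against 26% of the others. These shares include the sites that form a complete palindrome. In the 75 strong peaks with a site and no palindrome, the base after the site was T in 58.7%, the next T in 40% and the next C in 21.3%, against 38.4%, 33.1% and 19.6% of 362 such peaks among the others. The base before the site was G in 46.7% of these 75, against 23.8% of the 362. Leaving out complete palindromes lowers these shares by construction. The variable base inside the site was C in 51.4% and T in 48.6% of the strong peaks.

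No match to GAACCAG or GAACTAG lay within 100 bp of 58 strong summits. Besides aux they included the promoters of Polr1B, the second-largest subunit of RNA polymerase I (signal 48903), of Sec63, part of the translocon of the endoplasmic reticulum (45287), and of Lar, a receptor tyrosine phosphatase (36362). In 5 of the 58 the palindrome was present in the form GAACCGGTTC, which holds neither 7-base form, among them Sgt1, a cochaperone of Hsp90, with a signal of 30793. A further 10 had a stretch with 1 mismatch, 14 had one with 2, and 29 came no closer than 3. Among those 29 were the peaks at Polr1B and at Ptp10D, another receptor tyrosine phosphatase (27323). Of the 58, 29 (50%, 36.6% to 63.4%) had at least 1 stretch within 2 mismatches, against 19.5% of the other thresholded peaks. The promoter share was 91.4% in the 58 and 93.1% in the 144 with a site, and diverging start sites were found at 39.7% and 47.9%.

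The genome sequence holds far more copies of these sites than the strong peaks use, and the share of copies at a strong peak differed with their place. On the 6 main chromosome arms there are 511 palindromes, of which 130 have their centre within 500 bp of a TSS. A strong summit lay within 100 bp of 73 of these 130 (56.2%, 47.2% to 64.8%), and a further 17 were at weaker thresholded summits. Of the 381 palindromes elsewhere, 3 were at a strong summit (0.787%, 0.163% to 2.28%) and 52 more at a weaker thresholded summit. The share of promoter copies at a strong summit was 54.7% for the 64 of GAACCAGTTC, 59.6% for the 47 of GAACTAGTTC and 52.6% for the 19 of GAACCGGTTC, with intervals that overlap. A 7-base site outside a palindrome was much less often at a strong summit, at 3.96% of 2831 promoter copies and at 0.0473% of 16923 copies elsewhere. The palindrome was picked from strong peaks, which are mostly at promoters, so this contrast is not independent of that choice.

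Among promoter palindromes the position along the gene went with the peak. Of the 82 within 100 bp of the nearest TSS, 63 (76.8%, 66.2% to 85.4%) were at a strong summit, and of the 48 farther away within 500 bp, 10 (20.8%, 10.5% to 35.0%). Downstream of the start site the contrast was widest, with 18 of 20 at a strong summit within 100 bp and 0 of 15 beyond it. None of the 11 promoter palindromes in coding exons had a thresholded summit within 100 bp. How many of these 11 are among the 15 was not counted, so distance and coding sequence were not told apart here.

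**Figure D3:**
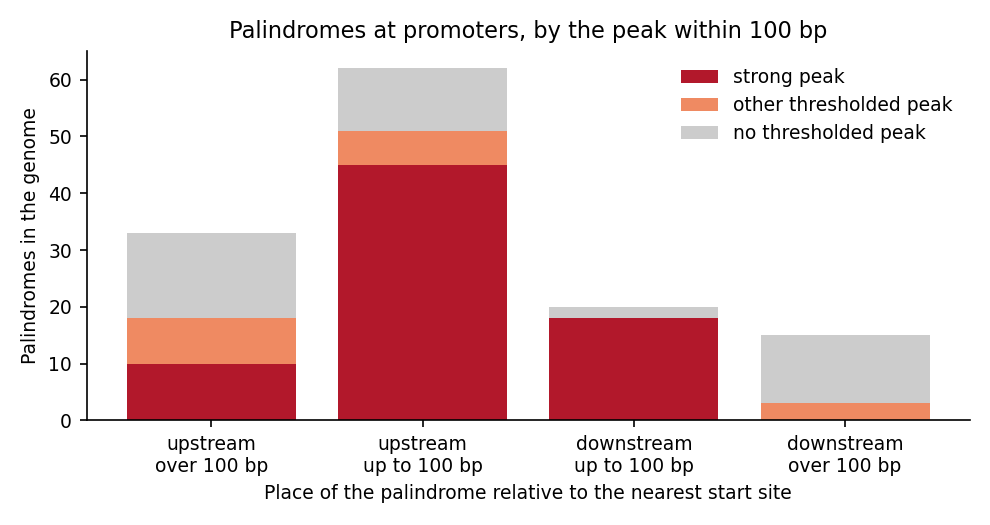
Stacked bars count the 130 palindromes within 500 bp of a start site (y axis) by their place relative to it (x axis), split by whether a strong summit, another thresholded summit or none lies within 100 bp. A strong summit is at 45 of 62 palindromes up to 100 bp upstream and 18 of 20 up to 100 bp downstream, against 10 of 33 and 0 of 15 farther away.

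Most strong peaks had a single site place. The 144 peaks held 211 matches, and 27 pairs of matches were the 2 strands of the same GAACTAGTTC. With such pairs counted once, 108 peaks had 1 site, 32 had 2 and 4 had 3. The 55 peaks with 2 or more matches made up 27.2% of the strong peaks (21.2% to 33.9%), against 0.553% of the others. The 40 pairs of neighbouring separate sites, in 36 peaks, were 10 to 153 bp apart from start to start, with a median of 24.5 bp, and 16 of them were within 20 bp. The sites of a pair lay on the same strand in 21 cases and on opposite strands in 19. Peaks with 3 or 4 matches were found at CG11454, CG12091, CG5521, CG12935, CG8405, Rabex-5, CG11257, CG14182, Hmg-2 and bdwf. Rabex-5 is an exchange factor of the endosomal GTPase Rab5, and Hmg-2 is a high mobility group protein. At zf30C, which encodes a zinc finger protein, 2 separate palindromes lay within 100 bp of the summit.

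The sites were close to the summits and just upstream of the start sites. The nearest site was a median of 23.5 bp from the strong summit, with quartiles of 14 and 46 bp, against 38 bp in the other thresholded peaks with a site. Of the 211 matches, 95 (45%) were within 25 bp and 152 (72%) within 50 bp of the summit. Relative to the TSS nearest to the summit, the 200 matches at promoters had a median position of 44 bp upstream, with quartiles of 68.5 and 9 bp upstream, and 33 (16.5%) were downstream. They were on the strand of the gene in 97 cases (48.5%). By annotation, 142 of the 211 were intergenic, 51 in a 5' UTR, 9 in introns, 4 in coding exons, 3 in non-coding exons and 2 in a 3' UTR.

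**Figure D4:**
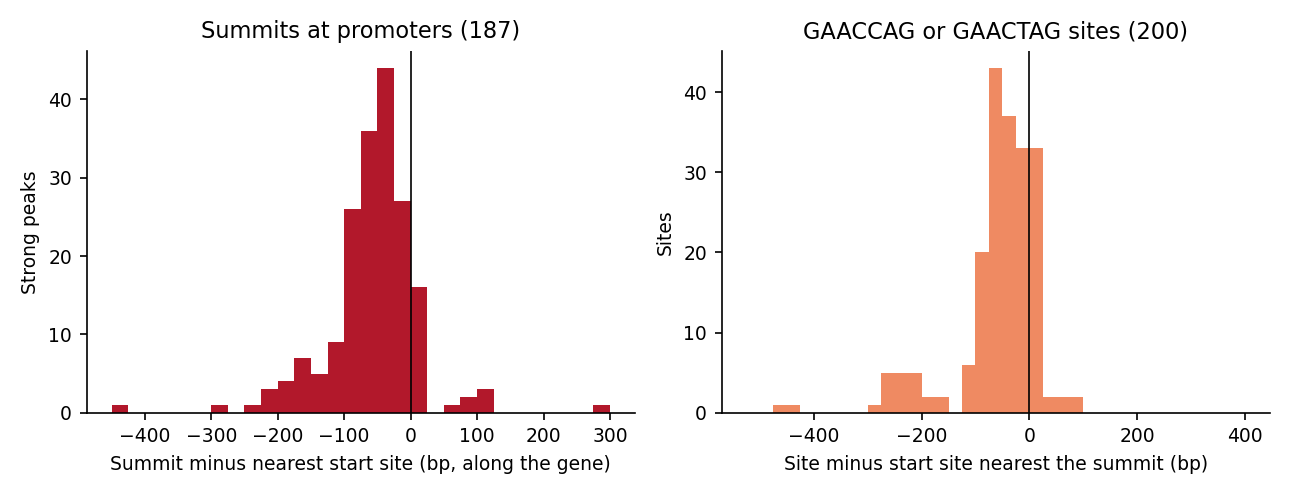
Histograms in bins of 25 bp show where the 187 promoter summits (left) and the 200 matches to GAACCAG or GAACTAG (right) lie relative to the start site nearest to the summit, at 0, with negative values upstream along the gene. Both pile up within 100 bp upstream, with medians of 50 and 44 bp upstream.

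Summits were at a promoter in 187 of the 202 strong peaks (92.6%, 88.0% to 95.8%), against 62.6% of the other thresholded peaks. Every peak of ranks 1 to 67 was at a promoter, as were 91.0% of ranks 68 to 134 and 86.8% of ranks 135 to 202. The promoter summits were a median of 55 bp from the nearest TSS, against 70 bp in other promoter peaks, and 22 of the 187 (11.8%, 7.52% to 17.3%) were downstream of it, against 21.0% of other promoter peaks. By annotation alone, 145 strong summits were intergenic, 33 in a 5' UTR, 15 in introns and 3 each in coding exons, non-coding exons and 3' UTRs.

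Diverging start sites, with the nearest TSS of each strand within 500 bp and pointing away from the other, flanked 92 strong summits. That is 45.5% of all strong peaks (38.5% to 52.7%), against 20.2% of the other thresholded peaks, and 49.2% of strong promoter peaks (41.8% to 56.6%), against 32.2% of other promoter peaks. In 82 of the 92 (89.1%) the summit lay between the start sites. The gap between them ran from 45 bp, at Clc and its neighbours, to 556 bp, at CG13531 and RpL23, with a median of 296 bp, against 275 bp at the other thresholded peaks with this layout. Start sites of a single strand were near 93 strong summits. At the remaining 2 promoter peaks, at mrj and at CG43107, the start sites of a gene and an antisense RNA faced each other. The median signal was 21422 at diverging start sites and 20680 at start sites of a single strand, and both groups spanned nearly the whole range. A shared promoter cannot be assigned to either gene from these data.

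Known promoter elements had shares in the strong peaks closer to those of other promoter peaks. The DRE, TATCGATA, bound by the factor Dref, was within 100 bp of 11.4% of strong summits (7.36% to 16.6%), 7.45% of other thresholded summits and 11.4% of other promoter summits, against 5.45% of all start site windows. The core of Ohler motif 1, GGTCACAC, was at 4.95%, 6.31%, 9.75% and 4.76% in the same order. CGATA, bound by BEAF-32 and also part of the DRE, was at 50%, 37.4%, 45.7% and 34.7%. Of the 5-base to 8-base elements sought on both strands, the initiator TCAGTC or TCAGTT was at 29.2% of strong summits and at 18.7% of other promoter summits, and the TATA box TATAAA at 26.7% and 28.7%. Within the strong peaks, a DRE was present in 9.03% of the 144 peaks with a 7-base site (4.89% to 14.9%) and in 17.2% of the 58 without (8.59% to 29.4%). The GAGA element GAGAGAG was at 1.49% of strong summits, against 4.64% of the other thresholded summits. The core of Ohler motif 7, CANCNCTA, the E-box CAGCTG, the CTCF core AGGNGGC and the Zelda motif CAGGTAG were at 17.3%, 17.8%, 5.45% and 0.495% of strong summits, against 16.4%, 16.2%, 6.12% and 0.733% of other promoter summits. In all start site windows these 4 shares were 9.94%, 12.3%, 6.38% and 1.04%, and those of the initiator, the TATA box and the GAGA element 29.5%, 26.2% and 4.4%.

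The strong summits had a TSS of 285 genes within 500 bp, of which 276 code for proteins. That is 1.98% of the 13945 protein-coding genes annotated on the 6 arms. A single gene was in reach of 90 peaks, 2 genes of 85 and 3 or more of 12. The other 9 genes were annotated as non-coding RNAs. Of the protein-coding genes, 93 are known by a CG number alone. A role could be given from general knowledge for 158 genes, and their grouping below was made after the names were seen, so it orders the list and carries no test. The value given below for a gene is that of a strong summit within 500 bp of its TSS, often shared with another gene. Another gene was nearer to the summit for Trs23, Vps39, Spt5, Taf11, Spt3, Sgf11, Prx6a, Hsp83 and Br140, among others.

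Membrane traffic held the largest of these groups, with 29 genes. Its peaks ran from aux (64036), through Rilpl, a Rab-interacting protein (55164), to Rab1, the GTPase of transport from the endoplasmic reticulum to the Golgi (5074). The entry of proteins into the endoplasmic reticulum was represented by Sec63 (45287), by the Sec62-type protein Trp1 (26907), by Sec61beta (20187) and by TRAM (8433). Tethering and coat proteins included Trs23 of the TRAPP complex (40147), Vps39 of the HOPS complex (27556), gammaCOP of the COPI coat (22658) and the clathrin light chain Clc (16607). The autophagy genes Atg18a and Atg18b had 26268 and 12462.

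Protein synthesis and RNA metabolism had 13 genes each. Dph1 (50212) and Dph4 (37285) act in the synthesis of diphthamide, a modified histidine of the elongation factor eEF2, and eEF2 itself had a strong peak of 29550 with its summit 25 bp upstream of its TSS. The eEF2 peak ranked 52, 52 and 51 in replicates 1, 2 and 3, and that of Dph1 9, 7 and 7. The ribosomal protein genes with a strong peak were RpS28a (48442), RpL13A (37285), RpL35 (9204) and RpL23 (6360). RpS28a shares its peak with Axn, RpL13A with Dph4 and Spec2, and the summit of RpL23 is 365 bp from its TSS and nearer to CG13531. RNA genes included the splicing factor Sf3a1 (43663), the exosome subunits Rrp4 (37874) and Rrp45 (12695), the polyadenylation factor Cpsf5 (35260) and the decay factor Upf3 (31281).

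Regulators of transcription numbered 24. SREBP, the transcription factor that drives lipid synthesis, had 50354, and SCAP, the protein that escorts SREBP to the Golgi for cleavage, had 28984. SREBP ranked 11, 6 and 6 in replicates 1, 2 and 3, and SCAP 68, 54 and 50. Components of the basal machinery were Polr1B (48903), TfIIEbeta (35389), Spt5 (35292) and Taf11 (18435). The SAGA coactivator was represented by Spt3 (24081), by Ada2b (22973) and by Sgf11 of its deubiquitinase module (18650). The peaks of Spt3 and Sgf11 are shared with DCAF12 and CG32202, which are nearer to the summits. Zinc finger proteins included zf30C (43606) and ZIPIC (23729), an insulator protein that recruits Cp190. The corepressor gene gro had 26636.

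Metabolic and mitochondrial genes numbered 24, with Prx6a, a peroxiredoxin (47783), SdhA, the catalytic subunit of succinate dehydrogenase (44282), Irc, a catalase whose TSS is 435 bp from the summit it shares with Sf3a1 (43663), and the coenzyme A synthesis gene Ppcs (32535) at the top. Among 19 signalling genes were Axn, the scaffold of the complex that destroys beta-catenin (48442), kibra of the Hippo pathway (40083), ihog, a Hedgehog co-receptor (39097), Akt, a kinase of the insulin pathway (8846), and the Janus kinase gene hop (20156). Folding and degradation genes numbered 17, among them the DnaJ-type gene mrj (35149), Sgt1 (30793) and Hsp83, the Hsp90 chaperone to which Sgt1 binds (21188). Of 10 genes of replication and division, PCNA2, a paralogue of the replication clamp, had 55473 through the promoter it shares with CG10366, and Orc6 of the origin recognition complex had 22926. RPA1 and Mcm2 share an interval with 3 strong summits, of 11369, 5857 and 5305.

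Among 27 gene lists drawn up by gene name, the share of members with a strong peak lay between 0% and 10.9%, against 1.98% of all protein-coding genes. These lists were written with earlier results of these data known, and their counts are small. The highest share was in the list of tRNA and rRNA modification and ribosome assembly, with 6 of 55 genes. Those 6 include Dph1 and Dph4, which act on the protein eEF2, and the first place of the list rests on them. Next came heat shock proteins and chaperones with 4 of 46 and autophagy with 2 of 25. General transcription factors had 2 of 27 and secretory and endosomal traffic 10 of 141. Counts of members with any thresholded peak are given below beside those with a strong one. The share of all protein-coding genes with a thresholded peak is not given here. Whether a thresholded count is high or low for a list therefore cannot be read from it. Of 88 cytoplasmic ribosomal protein genes, 83 had a thresholded peak at a promoter and 4 a strong one (4.55%, against 1.98% of all protein-coding genes). Of 66 chromatin regulators, 54 and 0 did. The list of chromatin regulators is not complete. Outside it, Wdr82 of the Set1 methyltransferase complex (32404), Arp5 of the INO80 remodeler (10766), the bromodomain gene Br140 (12231) and the SAGA genes Spt3, Ada2b and Sgf11 had strong peaks. No strong peak was found at 29 Mediator subunit genes, 39 nuclear pore and import genes, 27 Notch pathway genes or 32 homeotic and segmentation genes, of which 21, 30, 12 and 6 had a thresholded peak. These lists, and that of chromatin regulators, are too small to tell 0 from the 1.98% of all protein-coding genes. Of 180 odorant and gustatory receptor genes, Gr97a was counted with a strong peak, 401 bp from its TSS, through the promoter it shares with CG5521.

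The 15 strong peaks with no TSS within 500 bp were in the lower part of the list, with a median signal of 9612 and ranks from 82 to 201. The strongest, with 24203, lay on 3L from 12732555 to 12733402, 1660 bp from the nearest TSS, that of SmD1, and held a palindrome of the form without a 7-base match. Its ranks in replicates 1, 2 and 3 were 84, 81 and 80. Next came intergenic peaks on 2L at 9089745 (17784) and 9490914 (16664), which lay 5638 and 3882 bp from the nearest TSS and held 1 site each, and an intergenic peak on 3L at 4510521 (14488) with 2. The farthest from any TSS, at 6553 bp, was in a coding exon on 3R at 19017477, with a signal of 12224 and 1 site. In all, 10 of the 15 held a 7-base site (66.7%, 38.4% to 88.2%), and 3 held a palindrome. No DRE was found at any of the 15, which allows a share of up to 21.8% (upper 95% Clopper-Pearson bound).

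Strong peaks were wide and some shared an interval. Their median width was 1116 bp, with a range from 540 to 3502 bp, against 424 bp in the other thresholded peaks. The upper quartile of those others is 424 bp as well, so many of them have exactly that width. In 41 of the 202 (20.3%, 15.0% to 26.5%) the interval held another thresholded summit, against 1.59% of the other peaks. The 202 summits lay in 190 intervals, and 12 pairs of neighbouring strong summits shared their interval. In 4 of these pairs the summits were 199 to 201 bp apart, at CG13531, at RPA1 and Mcm2, at CG12104 and at ksh, and whether such a second summit is a binding place of its own was not tested. Other pairs sat at the start sites of different genes, such as Rrp45 and CG4768, 843 bp apart, and Atg18b and CG8677, 637 bp apart. By chromosome arm, X held 30 strong peaks, 2L 33, 2R 39, 3L 45, 3R 55 and the fourth chromosome 0. The fourth chromosome has 1.01% of the sequence and 23 thresholded peaks. In the same order the arms held 14.9%, 16.3%, 19.3%, 22.3%, 27.2% and 0% of the strong peaks. They held 18.6%, 18.3%, 19.7%, 19.9%, 23.2% and 0.27% of the other thresholded peaks. Each of these other shares lies inside the interval of the strong share, which reaches 1.81% for the fourth chromosome. No arm was therefore told apart from its share of the other peaks.

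All 202 strong peaks had a summit within 100 bp in each of the 3 replicate lists of 30000 entries. The lowest rank any of them took was 211, 211 and 214 in replicates 1, 2 and 3, and 199, 200 and 199 of them were among the 202 strongest entries. The recovered share was 98.7% ± 0.289 (mean and SD, n = 3). Rank moved by a median of 3, 3 and 1 places between the thresholded list and replicates 1, 2 and 3, and by at most 21, 31 and 12. Replicate 3 had the highest signals, 9766 at the median strong peak, against 5463 and 4276 in replicates 1 and 2. The thresholded list was made from these replicate lists and their pool, and all of them used the same control, so the recovery is not independent of how the peaks were chosen.

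**Figure D5:**
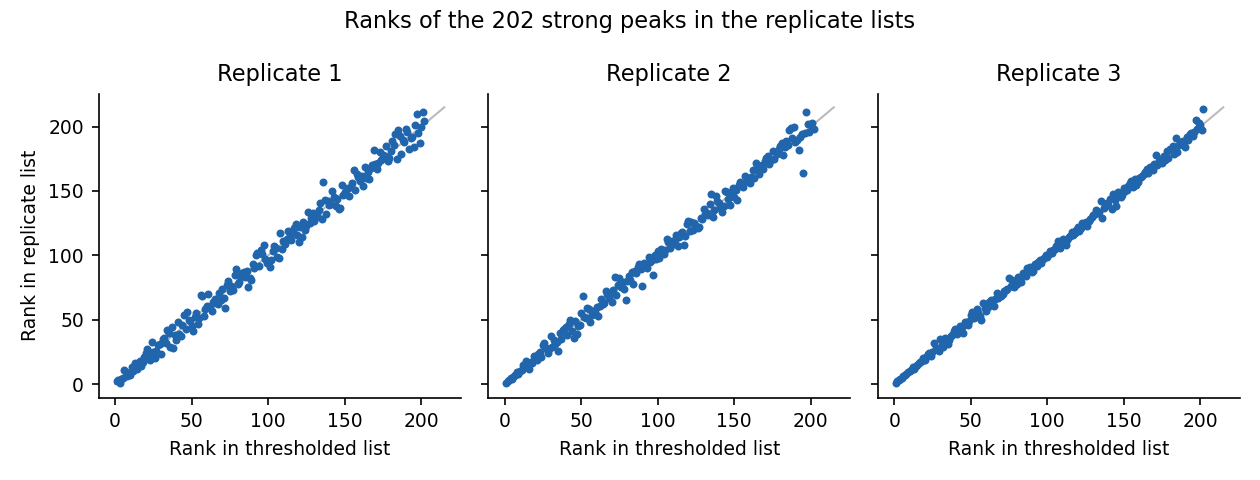
Each point is a strong peak, by its rank in the thresholded list (x axis) and in the list of replicate 1, 2 or 3 (y axis), with a grey line at equal ranks. Points stay close to the line in all 3 panels, and the lowest ranks are 211, 211 and 214.

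The largest spread between replicates was at a second summit of an interval. After each replicate was scaled to the median of the strong peaks, the SD of a peak's log2 signal over the 3 replicates had a median of 0.058 and a highest value of 0.32. That highest value belonged to the summit between CG12935 and wde, a cofactor of the histone methyltransferase Eggless, which ranked 195 overall and 184, 164 and 193 in the replicates. It shares an interval of 3502 bp with the stronger summit of CG12935. The coding-exon peak on 3R at 19017477, of rank 136, came next with ranks of 157, 130 and 129. Of the 202 peaks, 198 were among the 202 strongest entries of all 3 replicates, 1 of 2 replicates, 2 of 1 replicate and 1 of none. That last was the third summit at RPA1 and Mcm2, with ranks of 210, 211 and 205.

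Properties of the strongest entries were alike in the 3 replicate lists. As 199, 200 and 199 of the strong peaks were among these entries, the shares could hardly differ. The likeness is therefore no independent repetition. Among the 202 strongest entries of replicates 1, 2 and 3, the 7-base site was within 100 bp of 70.8%, 69.8% and 72.3% of summits, a mean of 71.0% ± 1.26 (SD, n = 3). The palindrome was at 36.1%, 36.1% and 37.1%, a mean of 36.4% ± 0.577. Promoters held 93.1% in each, and diverging start sites 45%, 45.5% and 45%. Median widths were 909, 963 and 1014 bp, and the median distance to the nearest TSS was 56, 57.5 and 57 bp.

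Signal passed through 5000 without a gap. The 5 peaks just above had signals of 5300, at CG33095, 5138, upstream of kay, 5074, at Rab1, 5044, near CG11714, and 5023, at ksh. The 5 just below had 4950, at rau, 4879, a second summit in the interval of kay, 4864, near CG2680, 4812, at Drat, and 4647, near Debcl. Sites with GAACCAG or GAACTAG were found at 2 of the 5 above and 2 of the 5 below. In the replicates the signal at places 202 and 203 was 1374 and 1371, 1170 and 1160, and 2485 and 2432.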

How the data were processed

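Anti-GFP ChIP-seq of CG15514-eGFP embryos was deposited as narrowPeak lists on dm6 and dm3. Signal values are peak heights that the authors' peak caller set against 1 control alignment, the same for the 3 replicates, per the deposited descriptions. The significance column of the deposited lists is a −log10 q value; it is at its maximum of 4.127 for all 202 strong peaks and was used only to check this. Summit offsets are positions in the interval, as deposited. The thresholded list was made from the replicate and pooled lists, per the same descriptions. The sources used here name no aligner, peak caller or threshold. The dm3 list was used for a count alone. The depth is unknown, as no read counts are in the lists.

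Peaks were ranked by signal within a list. Coordinates are dm6, counted from 1, on the Release 6 sequence, with Ensembl 115 annotation and without transposable elements. A promoter was 500 bp around any TSS, sites were exact matches within 100 bp of the summit, wholly inside the window, and replicate summits were matched within 100 bp. Genome copies of a site were placed by their centre. Shares have 95% Clopper-Pearson intervals from SciPy 1.17.1. No test between groups was possible, since the samples form 1 group. The members, gene lists and motifs were chosen with earlier results of these data known. Genes were named by functional group, by list with up to 6 members in order of signal, or as the 3 strongest peaks, the 5 on either side of the threshold, peaks with 3 or more sites, peaks without a TSS and those that moved most between replicates. Other genes were named after their values were seen. The scripts recovered all sites planted in simulated sequence. Alternatives were other thresholds, windows, distances and left-out replicates.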

Additional observations from a re-analysis of the deposited data

How the results depend on the processing

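No paired analysis was possible because all samples form 1 group. Of 50 alternative settings over 13 results, 37 were counted as unchanged and 13 as moved. Counts of peaks and genes have no error of their own and were all counted as unchanged, although they shifted with threshold or distance. Protein-coding genes numbered 235 with a TSS distance of 250 bp and 312 with 1000 bp, against 276. Windows of 50 and 200 bp in place of 100 bp gave 54.0% and 78.2% of strong peaks with GAACCAG or GAACTAG, 15.3% and 34.2% with 2 or more matches, and a median distance from summit to site of 19 and 26 bp. The palindrome was at 25.2% in windows of 50 bp. A distance of 1000 bp to the TSS gave 96.0% of strong peaks at promoters and 58.4% with diverging start sites, and 250 bp gave 26.2% with diverging start sites. The median distance to a TSS was 59.0 bp above a signal of 4000 and 55.0 bp above 10000, against 57.5 bp. Both lie outside the SD of 0.764 bp between replicates and were counted as moved. The replicate lists share most of these peaks, so that SD does not measure the error of a median over other members. With overlap of intervals in place of summits, the recovery in replicates was 99.5%. These shifts follow from wider or narrower windows or from other members. Peaks numbered 221 above 4000 and 153 above 10000, and 202 on dm3.

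Without replicate 1, 2 or 3, in turn, 198, 198 and 199 strong peaks of the same thresholded list were kept. Their signal still came from all 3 replicates. The promoter share was 93.0% to 93.4% and the share with GAACCAG or GAACTAG 71.9% to 72.2%. So few peaks were removed that these 2 shares could hardly change, so they cannot show whether the result depends on 1 replicate. The recovery was 98.5% to 98.8%, and the share of the strongest replicate entries with a site 70.3% to 71.5%. With the strongest summit of each of the 190 intervals alone, a setting chosen after seeing the data, the promoter share was 92.6%, the 7-base site share 72.1% and the palindrome share 37.9%. Unknown depth and the shared control limit what the replicate lists can show.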
